A study of Homo sapiens with 20 samples.

Results

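The comparison was of HAP1 with HEK293FT cells at day 0 of a pooled guide RNA screen in which both lines carried the same guide library. It took 4 of the 20 libraries of the series, namely 2 of HAP1 and 2 of HEK293FT, chosen by their labels, and the 17571 guide numbers present in the tables of both lines, of which 16572 were targeting and 999 non-targeting. HAP1 is a near-haploid line derived from a chronic myelogenous leukaemia, and HEK293FT is a line of embryonic kidney origin that carries the SV40 large T antigen. All 4 groups used below, HAP1 and HEK293FT at day 0 and at day 14, carried a nuclear RfxCas13d under doxycycline control, received the lentiviral library at low multiplicity in separate infection replicates, and were selected with puromycin at 1 µg/ml. After selection doxycycline at 1 µg/ml was added together with blasticidin at 5 µg/ml and further puromycin. The day 0 libraries describe the pool at the start of induction and the day 14 libraries, 2 per line, describe it 14 days later. The labels do not say whether a line was 1 clone.

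Cas13d is a nuclease that is guided to RNA by a short CRISPR RNA and cuts the transcripts its guide matches. In a fitness screen each cell carries 1 guide, the guide cassette integrated in genomic DNA serves as the barcode of that cell, and a guide against a transcript that the cells need becomes rarer as its carriers are lost. Non-targeting guides, designed to match no transcript, show how guide numbers drift without such loss. The day 0 library is the reference from which loss is counted, and its guide levels reflect how the library was made, packaged and taken up by the cells and what happened between infection and induction. The tables give guide numbers and a mark for non-targeting guides, so guides are described by number, with no gene and no sequence.

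The values were signals per guide that the authors had normalised in a way not stated in the sources used here, so the depth is unknown. They are printed below after each library was scaled on its non-targeting guides, which moved no library by more than 0.02 on the log2 scale. The shared guides summed to between 2868131 and 3300633 in the 4 day 0 libraries before scaling. Each line has its own table, so line and table cannot be told apart, and no test was made across the tables. With 2 libraries per line an exact permutation test over libraries could not go below p = 0.333. Differences between the lines are therefore given beside the spread between libraries of a line, and a guide was called where both libraries of one line lay above both of the other and the means differed by at least 1 on the log2 scale.

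Targeting guides fell into 2 groups of level in every day 0 library. Of the 16572, 14603 lay below a mean log2 signal of 8, which is a signal of 256, and 1969 lay at or above it, a border placed at the trough between the groups after the levels were seen. The low-level guides had median signals of 103 and 106 in HAP1 replicates 1 and 2 and of 128 and 126 in HEK293FT replicates 1 and 2. The high-level guides had medians of 453 and 464 in HAP1 and of 471 and 474 in HEK293FT. Non-targeting guides lay with the high-level group, with medians of 430 and 431 in HAP1 and of 433 and 430 in HEK293FT. Both HAP1 medians thus lay below both HEK293FT medians in the low-level group and, by less, in the high-level group, and the non-targeting medians of the lines overlapped.

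**Figure D1:**
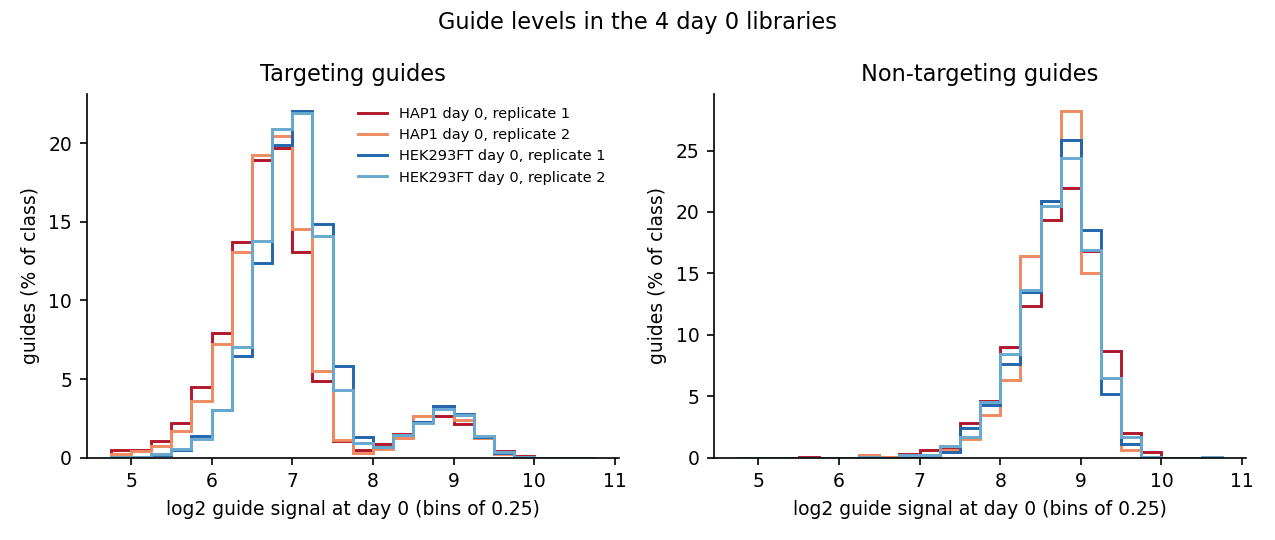
Share of guides (percent of the class) by log2 signal at day 0, in bins of 0.25, for the 2 HAP1 and the 2 HEK293FT libraries, with values past either end placed in the end bin. The low-level peak of the targeting guides lies further left in both HAP1 libraries (medians 103 and 106) than in both HEK293FT libraries (128 and 126), and the non-targeting peaks lie together.

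The level group went with the guide number. Guide numbers run in sets of 4, a grouping found in earlier work on these data and not documented, and 4044 sets had all 4 guides in both lines. Of these, 455 had 4 high-level guides, 3540 had 4 low-level guides and 49 were mixed. Neighbours within a set correlated in mean level at r = 0.77 in HAP1 and 0.74 in HEK293FT over 12326 pairs of guides, and neighbours across a set border at 0.01 in both lines over 4111 pairs. These pairs share libraries and their members are not replicates, so the correlations are descriptive. Within the low-level group alone, neighbours of a set correlated in mean level at 0.15 in HAP1 and 0.12 in HEK293FT (10813 pairs).

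The ratio between the groups does not depend on how libraries are scaled. The median non-targeting guide stood 4.19 and 4.08 times above the median low-level guide in HAP1 replicates 1 and 2, and 3.38 and 3.42 times above it in HEK293FT replicates 1 and 2. The median high-level guide stood 4.40 and 4.39 times above the low-level median in HAP1 and 3.67 and 3.78 times above it in HEK293FT. In both ratios the 2 HAP1 libraries lay above the 2 HEK293FT libraries by more than the replicates of either line differed. At day 14 the first ratio was 4.05 and 4.07 in HAP1 and 3.50 and 3.43 in HEK293FT, again without overlap.

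On the scale set by the non-targeting guides, the median difference of low-level guides, HAP1 minus HEK293FT, was -0.29 on the log2 scale, with -0.32 from the replicate 1 libraries and -0.25 from the replicate 2 libraries. For high-level guides it was -0.03, with -0.05 and -0.03 from the 2 pairs. Both HAP1 libraries lay below both HEK293FT libraries for 64.4% of low-level, 26.2% of high-level and 22.6% of non-targeting guides. Over all 17571 guides 57.8% lay lower in this way and 4.56% higher. This balance rests on the scaling. With a trimmed mean over all guides the low-level median was -0.04 and the high-level median 0.21. The shares were then 21.8% lower and 21.9% higher. Which group differs thus depends on the scaling, and only the distance between the groups does not. That distance between the low-level and the non-targeting median was -0.29, and no scaling of whole libraries can change it. Whether the normalisation by the authors, made in a way not stated, changed it cannot be told.

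Within the low-level group the difference was larger in bins of lower mean level. Targeting guides with a mean log2 signal below 6 had a median of -0.45 (595 guides), those from 6 to 6.5 of -0.35 (2355), those from 6.5 to 7 of -0.29 (6795), those from 7 to 7.5 of -0.26 (4536) and those from 7.5 to 8 of -0.24 (322). Past the border it was -0.10 from 8 to 8.5, -0.04 from 8.5 to 9 and -0.02 above. Non-targeting guides had medians of -0.09, -0.00, 0.00 and 0.02 in the 4 bins from 7.5 upward. In the bin from 7.5 to 8, where both classes were present, the targeting guides (322) lay at -0.24 and the 54 non-targeting guides at -0.09, with standard deviations over guides of 0.31 and 0.37. The levels by which guides were binned are the mean of the same 4 libraries, so errors of these libraries enter both the bin and the difference. The later loss comparison below binned guides by 1 HEK293FT library and took the difference from the other. From the bin below 6.5 to that from 7.5 to 8, its guides not low at day 14 changed less. With HEK293FT replicate 2 binning, their median went from -0.37 to -0.29 in HAP1 replicate 1 and from -0.32 to -0.28 in replicate 2. With replicate 1 binning it went from -0.33 to -0.25 and from -0.27 to -0.26.

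**Figure D2:**
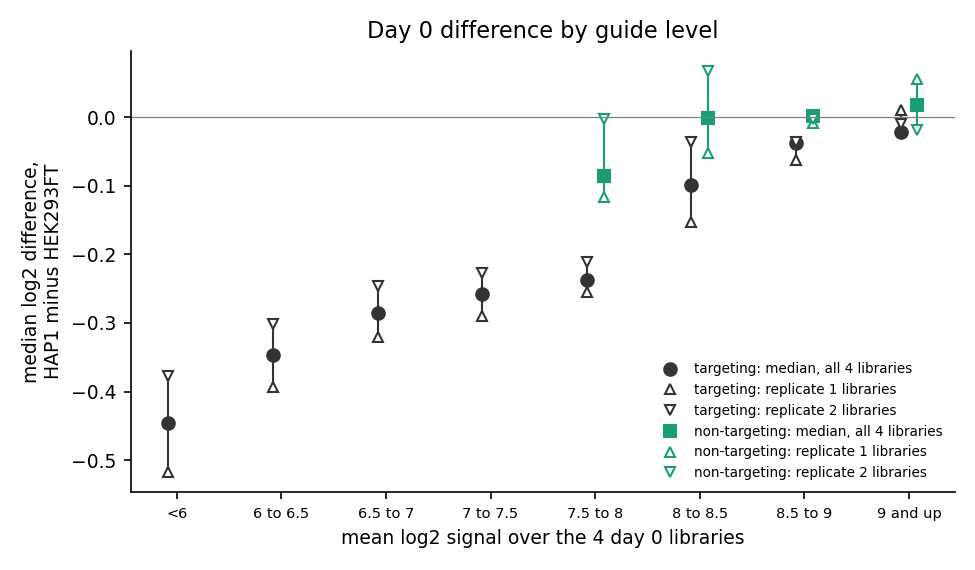
Median log2 difference at day 0, HAP1 minus HEK293FT, against the mean log2 signal over the 4 libraries, for targeting (black) and non-targeting guides (green, bins with at least 20 guides), with open triangles for the replicate 1 and the replicate 2 libraries joined by a line. Targeting guides go from -0.45 in the lowest bin to -0.02 in the highest, and in each bin below 8 both replicate pairs lie below 0.

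The spread of single guides around the median was close to that between libraries of a line. The spread of the difference over low-level guides was 0.31 (SD over 14603 guides) from the replicate 1 libraries and 0.28 from the replicate 2 libraries. The 2 libraries of a line differed from each other by a similar amount, with an SD of 0.30 in HAP1 and 0.24 in HEK293FT. Of all guides 83 were called lower in HAP1, which is 0.472%, and 1 was called higher, which is 0.00569%. All 83 were targeting guides and 81 were low-level, beside shares of 94.3% and 83.1% among all guides, and each lay in a different one of the 4177 sets. Their median difference was -1.13, and 32 of them lay between -1 and -1.1.

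The count of called guides moved with the libraries and the scaling, and leaving out a library also loosens the rule that libraries must not overlap. It was 276 lower and 2 higher without HAP1 replicate 2, 135 lower and 2 higher without HEK293FT replicate 2, 98 lower and 7 higher without HEK293FT replicate 1, and 105 lower and 2 higher without HAP1 replicate 1. Of the 83 guides, 68, 60, 48 and 56 were still called in these cases, in the same order. With a trimmed mean over all guides 26 were lower and 9 higher, and with total signal 34 were lower and 4 higher. In 28 of the 83 the 2 HEK293FT libraries lay over 1 apart on the log2 scale, in 20 of these with replicate 1 above replicate 2. In 52 of the 83 neither line had its libraries over 1 apart.

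The guides with the largest differences were high in 1 HEK293FT library. The guide gID_15651 had signals of 413 and 507 in HAP1 replicates 1 and 2 and of 10428 and 935 in HEK293FT replicates 1 and 2, a difference of -2.77. The guide gID_15193 had 384 and 516 in HAP1 and 694 and 10279 in HEK293FT, a difference of -2.58. Each was the highest targeting guide of 1 HEK293FT library, and in the other HEK293FT library it still lay above the 90th percentile of the high-level guides, which was 637 in replicate 1 and 647 in replicate 2. At day 14 no such signal remained. The guide gID_15651 had 109 and 120 in HAP1 and 125 and 155 in HEK293FT, and fell in both lines (adjusted p = 6.86e-05 in HAP1 and 0.048 in HEK293FT by limma, n = 2 per day). The guide gID_15193 had 625 and 597 in HAP1 and 642 and 430 in HEK293FT, with no change that passed limma in either line (adjusted p = 0.224 and 0.352). Both guides were chosen for their day 0 difference, and the same day 0 libraries enter the fit. A fall in HEK293FT therefore follows in part from the choice.

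The next 3 guides by size were low-level guides with both HEK293FT libraries raised, replicate 1 more than replicate 2. The guide gID_14235 had 106 and 100 in HAP1 and 586 and 297 in HEK293FT, a difference of -2.02. The guide gID_02690 had 106 and 96.4 in HAP1 and 562 and 216 in HEK293FT, a difference of -1.79. The guide gID_15210 had 59.4 and 76.7 in HAP1 and 357 and 151 in HEK293FT, a difference of -1.78. In HEK293FT their day 14 signals were lower than either day 0 signal, namely 148 and 185, 100 and 164, and 60.6 and 101. None of the 3 changes passed limma within HEK293FT (adjusted p between 0.0681 and 0.16, n = 2 per day). These guides too were chosen for their day 0 difference, so lower HEK293FT signals at day 14 follow in part from the choice.

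Among non-targeting guides gNT_000228 was the single guide called higher in HAP1. Its log2 signals were 8.87 and 8.55 in HAP1 and 7.59 and 7.69 in HEK293FT, a difference of 1.07. The guide gNT_000292 had 522 and 342 in HAP1 and 243 and 199 in HEK293FT, a difference of 0.94 with no overlap. At the other end, gNT_000102 had 579 and 381 in HAP1 and 479 and 1783 in HEK293FT, a difference of -0.98 in which the lines overlapped. The guide gNT_000889 had 77.0 and 89.2 in HAP1 and 205 and 112 in HEK293FT, a difference of -0.87. Without overlap between the lines, differences of non-targeting guides thus went from -0.87 to 1.07 among the named ones.

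**Figure D3:**
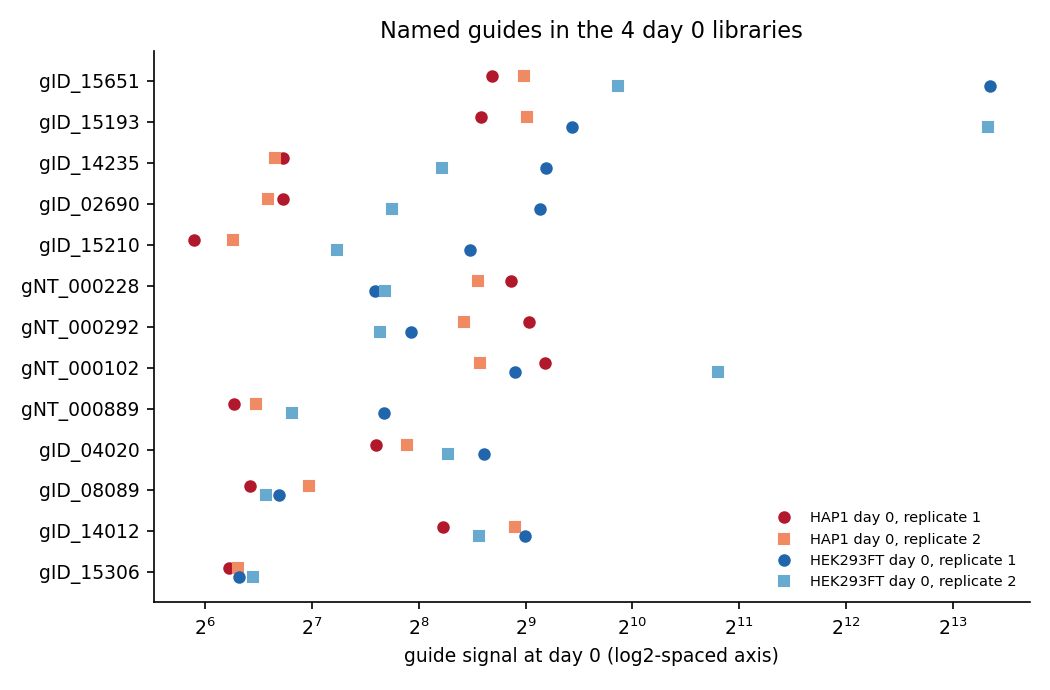
Day 0 signal of the named guides in each library on a log2-spaced axis, with HAP1 in red tones and HEK293FT in blue tones, circles for replicate 1 and squares for replicate 2. The guides gID_15651 and gID_15193 have single HEK293FT libraries at 10428 and 10279, and the lines overlap for gNT_000102, gID_08089 and gID_14012.

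A part of the guide-by-guide difference recurred between infection replicates. The difference from the replicate 1 libraries correlated with that from the replicate 2 libraries, which are separate libraries, at r = 0.26 over 16572 targeting guides (Spearman's rho 0.24) and at r = 0.25 over 999 non-targeting guides (rho 0.25). Over low-level guides alone r was 0.20 and over high-level guides 0.24. With the HEK293FT numbers exchanged, r was 0.20 over targeting, 0.13 over low-level, 0.25 over high-level and 0.28 over non-targeting guides. The guides share a line's table and its normalisation, and these values are across guides, not samples.

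The 2 HAP1 libraries differed in which libraries they were nearest to, and the order depended on the guide class. Over non-targeting guides the log2 signal of HAP1 replicate 1 correlated at 0.69 and 0.62 with HEK293FT replicates 1 and 2, and that of HAP1 replicate 2 correlated at 0.81 and 0.73 with them. Over low-level guides the values were close, at 0.77 and 0.79 for HAP1 replicate 1 and 0.75 and 0.79 for replicate 2. With HAP1 replicates 1 and 2 at day 14, HAP1 replicate 1 at day 0 correlated at 0.57 and 0.64 over low-level guides and HAP1 replicate 2 at 0.48 and 0.38. Over non-targeting guides replicate 2 was the nearer, at 0.84 and 0.78 against 0.68 and 0.77. HAP1 replicate 1 lay at least 1 below replicate 2 on the log2 scale for 124 targeting guides and at least 1 above it for 3. In HEK293FT the numbers were 13 and 28. In both lines the difference between replicates 1 and 2 at day 0 ran opposite to that at day 14. Its r was -0.44 over targeting and -0.36 over non-targeting guides in HAP1, and -0.32 and -0.42 in HEK293FT. Results on later loss are therefore given for each HAP1 library.

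The next question was whether a guide's day 0 difference went with its later loss. Within the lines, 1154 of 17690 guides (6.52%) fell in HAP1 and 209 of 17572 (1.19%) fell in HEK293FT by limma at an adjusted p under 0.05. That fit uses the day 0 libraries that also enter the difference. Loss was therefore counted from the day 0 library of one replicate number to the mean of day 14, and the day 0 difference was taken from the libraries of the other number. Guides at or under -1 were taken as lost. No library enters both sides, but the libraries of a line share a table and a normalisation not stated, and same-numbered libraries of the 2 days deviated oppositely, so the sides are not shown to be independent.

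The 2 directions gave different answers. From the replicate 1 libraries, the 1142 targeting guides lost in HAP1 had a median day 0 difference of -0.53 and the other 15430 one of -0.29. From the replicate 2 libraries, the 1022 lost guides had a median of -0.17 and the other 15550 one of -0.23. Lost guides thus lay 0.24 lower than the rest in one pair of libraries (a distance of -0.24) and not lower in the other (0.06). Guides lost in HEK293FT showed the same split, with -0.54 against -0.30 from replicate 1 (270 guides lost) and -0.16 against -0.23 from replicate 2 (262 lost). For losses at or under -2 in HAP1 the medians were -0.63 against -0.29 and -0.17 against -0.23. Over all targeting guides the difference correlated with the HAP1 change at r = 0.21 from replicate 1 (rho 0.10) and at r = 8.4e-05 from replicate 2 (rho 0.05).

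The HAP1 libraries were then compared with each other. Guides low in HAP1 at day 14 were chosen by the HAP1 day 14 mean against a HEK293FT day 0 library, less the median of all targeting guides, so that no HAP1 day 0 library entered the choice. A guide with a standing difference between the lines is chosen in this way without any fall in HAP1, so a lower HAP1 level at day 0 is partly built in, and what the choice leaves to compare is HAP1 replicate 1 with replicate 2. Against HEK293FT replicate 2, 1151 targeting guides lay at or under -1. Set against HEK293FT replicate 1, they lay at -0.57 in HAP1 replicate 1 and at -0.17 in HAP1 replicate 2, and the other 15421 guides lay at -0.28 and -0.26. HAP1 replicate 1 was below HAP1 replicate 2 for 946 of the 1151 (82.2%) and for 52.1% of the others. For the 362 guides at or under -3 the medians were -0.75 and -0.10, with replicate 1 below replicate 2 for 323. Chosen against HEK293FT replicate 1, 1164 guides gave -0.59 and -0.20 against -0.25 and -0.23. At day 14 the 1151 guides lay at -2.36 and -2.38 in the 2 HAP1 libraries, which no longer differed in this way.

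The gap was also taken by guide level. In 6 bins of the level in the HEK293FT library that chose the guides, and with either library choosing, the chosen guides lay lower than the rest in HAP1 replicate 1 in each bin, with medians of -0.69 against -0.37 in the lowest and -0.31 against -0.02 from 8 to 9 when replicate 2 chose. In HAP1 replicate 2 the chosen guides lay above the rest in the 3 bins below 7.5 with either library choosing, for example at -0.18 against -0.29 from 7 to 7.5. From 7.5 to 8 they lay below it, at -0.36 against -0.28 (50 chosen guides), when replicate 2 chose. The values were close there when replicate 1 chose, at -0.264 against -0.256 (59 chosen guides). In the bins from 8 upward the chosen guides were lower in HAP1 replicate 2 too, at -0.08 against 0.01 from 8 to 9 (207 chosen guides) and -0.14 against -0.02 above 9 (83 chosen guides). With replicate 1 choosing these were -0.16 against -0.02 and -0.16 against -0.01. Why the HAP1 replicates differ was not tested.

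**Figure D4:**
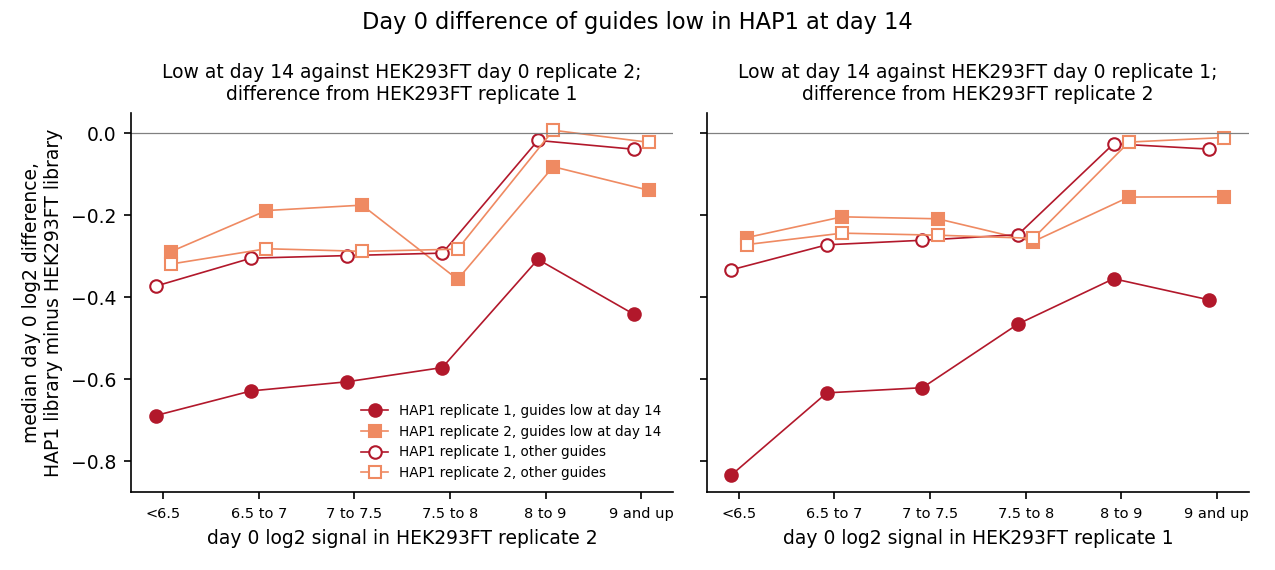
Median day 0 log2 difference of a HAP1 library from a HEK293FT library, by day 0 level in the HEK293FT library that chose the guides, for guides low in HAP1 at day 14 (filled) and other targeting guides (open), with lines joining the bins. The guides low at day 14 in HAP1 replicate 1 (dark red circles) lie below the rest in every bin, from -0.69 to -0.31 on the left, whereas in HAP1 replicate 2 (orange squares) they lie above the rest below 7.5.

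The difference at day 0 was set beside the difference at day 14, which comes from other libraries of the same tables. Over 16572 targeting guides r was 0.27 (rho 0.31), and over 999 non-targeting guides 0.21 (rho 0.20). Without HAP1 replicate 1 at day 0 it was 0.10 over targeting and 0.16 over non-targeting guides, and without HAP1 replicate 2 it was 0.36 and 0.21. In 10 bins of low-level guides ordered by the day 0 difference, the median went from -0.68 to 0.05 at day 0 and from -0.41 to -0.08 at day 14. The share of guides at or under -1 at day 14 went from 17.6% in the lowest bin to 2.12% in the highest. This trend in the share rested on HAP1 replicate 1. With the bins ordered without HAP1 replicate 2 the share went from 29.3% to 0.890%, and without HAP1 replicate 1 from 8.49% to 10.7%. Over low-level guides r was 0.27 with both libraries, 0.37 without replicate 2 and 0.07 without replicate 1. The day 14 medians of the lowest and highest bin were -0.47 and -0.12 without replicate 2 and -0.38 and -0.12 without replicate 1.

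**Figure D5:**
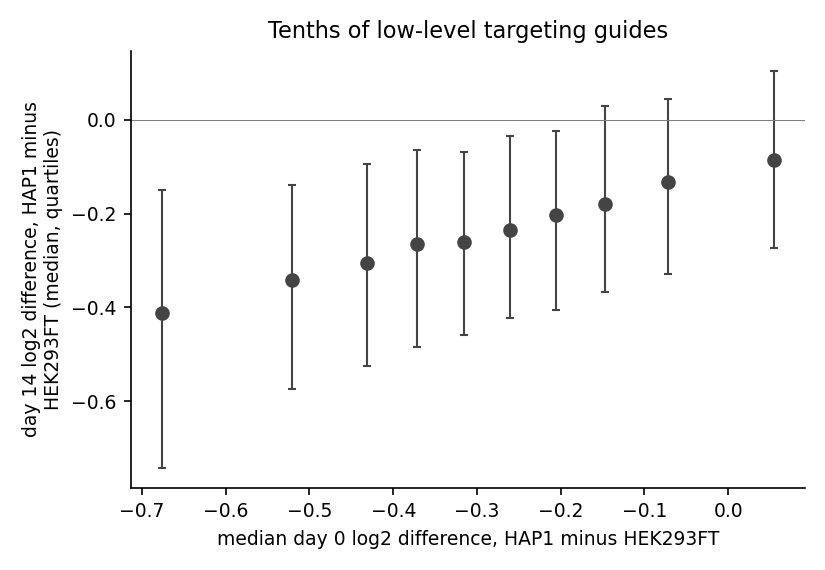
Median day 14 log2 difference, HAP1 minus HEK293FT, with quartiles as bars, against the median day 0 difference in 10 bins of 1460 or 1461 low-level targeting guides, ordered by the day 0 difference from both HAP1 libraries. The day 14 medians go from -0.41 in the lowest bin to -0.08 in the highest.

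The 83 guides called lower at day 0 were looked up at day 14. Since they were chosen for a low day 0 difference, a smaller one in other libraries follows from the choice. Their median difference was -0.42 at day 14, where 71 lay below 0 and 16 lay at or under -1. That is 19.3% of them, beside 6.91% of all guides.

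Guides at the extremes of the day 14 changes in earlier work on these data were set beside their day 0 levels. The guide gID_04020, the extreme fall in HAP1, had 194 and 237 in HAP1 and 390 and 309 in HEK293FT, a difference of -0.70 with no overlap. This difference was -0.45 with a trimmed mean over all guides and -0.52 with total signal. By day 14 the guide stood at 0.990 and 1.104 in HAP1 and at 24.5 and 17.1 in HEK293FT. The lowest targeting guides of those HAP1 libraries stood at 0.936 and 1.097, so the size of its fall in HAP1 is poorly measured. The guide gID_08089, the extreme rise in HAP1, had 85.5 and 126 in HAP1 and 104 and 94.9 in HEK293FT at day 0, where the lines overlapped. The guide gID_14012, the extreme fall in HEK293FT, had 299 and 478 in HAP1 and 509 and 380 in HEK293FT, again with overlap. The guide gID_15306, the extreme rise in HEK293FT, had 74.9 and 79.0 in HAP1 and 79.5 and 87.5 in HEK293FT, a difference of -0.12 that was 0.13 with a trimmed mean over all guides and 0.06 with total signal.

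The day 0 difference was then compared between neighbours in a set. Over targeting guides, neighbours within a set correlated in their difference at r = 0.17 and neighbours across a border at 0.00, but within the low-level group the value within sets was 0.06. It was 0.13 for HAP1 replicate 1 and 0.04 for HAP1 replicate 2, each against the HEK293FT mean. The difference between the HAP1 replicates correlated at 0.15 within low-level sets and that between the HEK293FT replicates at 0.01. No set had a mean difference at or under -1, and 184 of 4174 had one at or under -0.5. Set means and the direction of a set's guides rest on the scaling by non-targeting guides. The low-level median was -0.29 with it and -0.04 with a trimmed mean over all guides.

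Of the sets whose 4 guides all differed in 1 direction, the lowest mean was -0.93 for numbers 14233 to 14236. It holds gID_14235, and its other guides lay between -0.73 and -0.49, with HAP1 replicate 2 lowest. The set 11973 to 11976 had a mean of -0.88, with geometric mean signals of 51.9 and 82.0 in HAP1 and 113 and 127 in HEK293FT at day 0. At day 14 it stood at 4.64 and 5.52 in HAP1 and at 46.3 and 68.6 in HEK293FT. Its guides gID_11975 and gID_11976 then lay between 1.04 and 1.96 in HAP1, near the lowest values of those libraries. The set 2061 to 2064 had a mean of -0.83, with 54.6 and 87.6 in HAP1 and 129 and 117 in HEK293FT, and stood at 20.6 and 22.1 in HAP1 and 83.9 and 102 in HEK293FT at day 14. In both sets HAP1 replicate 1 lay below replicate 2 at day 0 and the 4 libraries were ordered by line without overlap. Both were chosen for a low mean difference, so an order by line follows in part from the choice. With the scaling by non-targeting guides, all 4 guides lay below 0 in 2608 of the 4044 sets with 4 guides and above 0 in 29.

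The 3 sets with the highest means were all high-level. The set 2405 to 2408 had a mean of 0.35, with 583 and 568 in HAP1 and 463 and 438 in HEK293FT. It stood at 918 and 866 in HAP1 and 499 and 497 in HEK293FT at day 14. The sets 15281 to 15284 and 15461 to 15464 had means of 0.31 and 0.27. At day 14 their differences were 0.67 and -0.28, so that the first kept its direction and the second had turned.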

How the data were processed

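Guide cassettes were amplified from genomic DNA and sequenced. Trimming with cutadapt 1.13, alignment with Bowtie 1.1.2 and the build GRCh38 are named in the submitters' processing notes without their settings. The values are a normalised signal per guide as deposited by the authors, with the normalisation not given in the sources used here. Rows with a missing value or without a guide number (1 in HAP1, 120 in HEK293FT) were left out and log2 values of repeated IDs (17 and 16) averaged. Each library was shifted by a trimmed mean, with 30% cut at either end, of the log2 deviations of its non-targeting guides. Changes from day 0 to day 14 were fitted per table on log2 signal with limma 3.58.1 under R 4.3.3 (variance trend, Benjamini-Hochberg adjusted p under 0.05). The fit was also run on simulated data with independent noise whose spread was shuffled over guides. Such data carry neither the trend of spread with level nor opposite deviations of same-numbered libraries. The labels give replicate numbers but not that they pair libraries across days, and same-numbered libraries deviated oppositely.

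Named guides were the 5 lowest and 5 highest called guides (1 was called higher) and the 2 lowest and 2 highest non-targeting guides, all with a mean day 0 signal of at least 50, the 3 lowest and 3 highest sets whose 4 guides differed in 1 direction, and 4 extremes of the day 14 changes. The comparison, sets and extremes were chosen with earlier results of these data known. Labels speak of separate infections. The p-values rest on the spread between those libraries as deposited, which limma moderates over all guides. Since same-numbered libraries deviated oppositely, this is not shown to be the spread between infections. Other scalings, pseudocounts, filters, pairings and omitted libraries were tried as alternatives.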

Additional observations from a re-analysis of the deposited data

Results flagged for a closer look

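In 6 named guides the HAP1 libraries moved one way from day 0 to day 14 and the HEK293FT libraries the opposite way, although HAP1 replicate 1 of gID_14233 was almost level (107.1 and 107.3) and its change came from replicate 2 (65.7 and 138). The difference between the lines in this change was not tested, and the share of all guides that moved so is not given here. The guides gID_15193, gNT_000228, gID_14233 and gID_15462 were named for a day 0 difference, their own or their set's, and moved against it. The same day 0 libraries enter the change, so such a move follows in part from the choice. The guide gID_02406, also named by its set, moved with that difference instead, and gID_08089 was named for its rise in HAP1. The guide gID_15193 changed by 0.46 in HAP1 and by -2.35 in HEK293FT on the log2 scale, the latter from a day 0 mean that holds the single library at 10279. The guide gNT_000228 changed by -0.48 in HAP1 and 0.40 in HEK293FT. In the same order gID_08089 changed by 2.53 and -0.55, gID_14233 by 0.53 and -0.085, gID_02406 by 0.61 and -0.25, and gID_15462 by -0.47 and 0.073. By limma (n = 2 per day) only gID_08089 (adjusted p = 7.37e-05) and gID_02406 (0.043) of the 6 passed in HAP1. None of the 6 passed in HEK293FT (adjusted p between 0.308 and 0.891). From day 0 to day 14 HEK293FT replicate 1 of gID_15462 was almost level (551 and 553), as was replicate 2 of gID_02406 (295 and 292).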

How the results depend on the processing

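Depth is unknown, and line and table cannot be told apart. The distance between the low-level and the non-targeting median lay between -0.31 and -0.26 over the other pseudocounts, filters and omitted libraries and a border moved to either side, added after seeing the data; scalings cannot move it. The low-level median itself was -0.042 with a trimmed mean over all guides and -0.11 with total signal. Guides called lower numbered 26 and 34 under these scalings, 48 with a pseudocount of 10, 3 with a difference of at least 2 required, and from 98 to 276 when 1 day 0 library was omitted. Guides called higher numbered 9, 4 and 0 with these scalings and the larger difference, and from 2 to 7 when 1 was omitted. The agreement between replicate numbers was 0.20 over targeting, 0.13 over low-level and 0.28 over non-targeting guides with the HEK293FT numbers exchanged. The correlation of the day 0 with the day 14 difference was 0.10 and 0.36 without HAP1 replicates 1 and 2. For neighbours of a set r was 0.10 with borders moved by 2 numbers and 0.058 in low-level sets alone, and across borders 0.16 and 0.0022, or 0.020 and 0.017 without HAP1 replicates 1 and 2. Over all targeting guides the distance of lost guides from the rest kept its direction in all alternatives. It went from -0.34 to -0.23 for replicate 1 and from 0.02 to 0.13 for replicate 2. Among these, loss counted from a HEK293FT day 0 library (-0.34 and -0.28, 0.02 and 0.09) has a lower HAP1 level partly built in. In bins of level from 7.5 upward, with guides chosen in that way, the direction turned for replicate 2. From 7.5 to 8 it did so by little when HEK293FT replicate 1 chose (-0.264 against -0.256). By limma the guides that fell in HAP1 numbered 1042 with a replicate block and from 790 to 1384 when 1 library was omitted, and in HEK293FT 199 with a replicate block and from 209 to 445. With crossed numbers in the replicate block, added after the opposite deviations were seen, 2005 and 674 fell.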

Other observations

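The place of a guide within its set of 4 went with its level at day 0 in both lines. Over low-level guides the median signal at places 1 to 4 was 94.4, 103, 106 and 108 in HAP1 replicate 1 and 98.4, 105, 108 and 111 in HAP1 replicate 2. In HEK293FT it was 122, 128, 130 and 132 in replicate 1 and 120, 126, 128 and 129 in replicate 2. The median difference between the lines went from -0.34 at place 1 through -0.29 and -0.27 to -0.25 at place 4, and 37 of the 81 low-level guides called lower in HAP1 were at place 1, which holds 25.1% of low-level guides. Called lower were 1.01% at place 1, 0.548% at place 2, 0.384% at place 3 and 0.275% at place 4. An order of the HAP1 changes within sets was seen in earlier work on these data, and the HAP1 day 0 libraries enter those changes.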
